A study of Mus musculus with 33 samples.

Results

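Interferon-stimulated genes are the genes that cells switch on when interferon reaches them, and 39 of them were followed here in mouse liver RNA-seq. They were chosen by name from a fixed list of symbols, and all 39 were among the 19169 genes of the count table. The study set an inhibitor of the stress kinase ASK1 (Map3k5) against a mutant form of the inflammasome sensor NLRP3 in mouse liver. Wild-type (WT) mice and Nlrp3 A350V knock-in (KI) mice received chow with placebo (control chow) or chow with the ASK1 inhibitor GS-444217 (the ASK1i diet) for 6 weeks. The KI genotype is labelled Nlrp3A350V/+CreT, which is a tamoxifen-inducible knock-in of 1 mutant allele beside 1 wild-type allele. What promoter drives Cre, how tamoxifen was given, whether WT mice had it too, and how old the mice were is not stated in the labels. Of the 33 libraries 10 came from WT mice on control chow (7 of them female) and 8 from WT mice on the ASK1i diet (4 female). A further 5 came from KI mice on control chow, of which 1 was female, and 10 from KI mice on the ASK1i diet, of which 5 were. Since no label ties a library to its own mouse, a p-value here speaks only of the spread among libraries, which may be technical.

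Interferons of type I and type III act through receptors that use the kinases JAK1 and TYK2. These phosphorylate STAT2, which joins a complex with IRF9 that binds the interferon-stimulated response element (ISRE) in the promoters of target genes. Interferon gamma works mainly through another element, the gamma-activated sequence (GAS). The products of the target genes sense viral RNA, degrade or sequester it, block virus entry and budding, and tag proteins with ubiquitin or ISG15. In the liver both hepatocytes and immune cells can make this response.

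Levels are CPM, that is counts scaled to a common library size after edgeR's TMM normalisation. Each difference is a log2 fold change with its standard error (SE). Each adjusted p is a Benjamini-Hochberg value over the 14934 genes tested, from edgeR's quasi-likelihood test with group, sex and title set as terms, and a gene is called higher or lower where it is under 0.05. All 39 members passed the filter on low counts. Nlrp3 itself read 1.62 to 4.96 CPM (median 3.36) in WT control, 7.87, 8.36, 9.84, 13.9 and 15.6 CPM in KI control, 2.38 to 3.88 CPM (median 2.63) in WT ASK1i and 2.10 to 11.0 CPM (median 8.46) in KI ASK1i. Nlrp3 was higher in KI by 2.10 (SE 0.24, adjusted p = 3.64e-08) on control chow and by 1.61 (SE 0.22, adjusted p = 2.51e-07) on the ASK1i diet. Reads of both Nlrp3 alleles are summed in these counts, so they do not show which allele a library carried. The lowest KI ASK1i value belonged to replicate 5, which also lay among the WT libraries on the first principal component of all genes (-59.2, against 54.9 to 103 for the other 9 KI ASK1i libraries), an axis that held 62.2% of the variance. Replicate 5 was kept, and member calls on the ASK1i diet are given with and without it (Nlrp3 itself differed by 1.76 there without it). Total counts ran from 28099676 to 40008118 per library.

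Windows of sequence around the start of transcription, from RefSeq on build GRCm38.p6 (the mm10 coordinates of the count table), were matched by symbol for 30 of the 39 members. Each spans 300 bases, from 250 before the start to 50 after it. An ISRE-like match, written GAAANNGAAA and searched on both strands with N as any base, was found in 16 of the 30 windows (53.3%), against 3.44% of all 32851 windows in the table. A GAS-like match, TTCNNNGAA, which is its own reverse complement, was found in 7 of the 30 (23.3%), against 8.3% of all windows. A match is a string of letters, and no binding was measured.

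The 160 bases before the start are printed for members on both sides of the KI and WT comparison and for Isg15, which was called on neither diet. Each reads 5′ to 3′ on the gene's own strand, with ISRE-like matches in capitals. Where a match lies on the other strand, the capitals are its reverse complement.
Oas1a, higher in KI on both diets, chr5:120907526-120907685, minus strand: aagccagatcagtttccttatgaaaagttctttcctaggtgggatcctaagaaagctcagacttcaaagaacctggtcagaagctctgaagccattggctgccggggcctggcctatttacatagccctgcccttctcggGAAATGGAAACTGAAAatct
Oas3, higher on both diets, chr5:120777660-120777819, minus strand: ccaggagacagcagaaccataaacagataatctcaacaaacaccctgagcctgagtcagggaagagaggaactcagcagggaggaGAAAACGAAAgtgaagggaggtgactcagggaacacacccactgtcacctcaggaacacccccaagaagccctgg
Gbp2, higher on both diets, chr3:142620503-142620662, plus strand: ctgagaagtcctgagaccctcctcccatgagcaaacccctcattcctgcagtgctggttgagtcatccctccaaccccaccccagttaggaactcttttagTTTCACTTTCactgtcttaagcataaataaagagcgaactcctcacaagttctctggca
Ifit1, lower on the ASK1i diet, chr19:34640729-34640888, plus strand: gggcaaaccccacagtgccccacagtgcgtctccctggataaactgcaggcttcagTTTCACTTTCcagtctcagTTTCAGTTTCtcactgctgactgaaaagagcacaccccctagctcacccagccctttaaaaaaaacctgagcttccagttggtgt
Ifit3, lower on the ASK1i diet, chr19:34583369-34583528, plus strand: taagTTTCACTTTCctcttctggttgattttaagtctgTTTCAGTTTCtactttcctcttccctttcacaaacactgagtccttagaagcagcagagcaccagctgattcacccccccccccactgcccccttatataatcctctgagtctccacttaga
Rsad2, lower on the ASK1i diet, chr12:26456453-26456612, minus strand: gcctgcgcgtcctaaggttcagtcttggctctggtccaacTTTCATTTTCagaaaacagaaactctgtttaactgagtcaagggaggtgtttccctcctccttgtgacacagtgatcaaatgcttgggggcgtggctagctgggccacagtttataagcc
Bst2, lower on the ASK1i diet, chr8:71537473-71537632, minus strand: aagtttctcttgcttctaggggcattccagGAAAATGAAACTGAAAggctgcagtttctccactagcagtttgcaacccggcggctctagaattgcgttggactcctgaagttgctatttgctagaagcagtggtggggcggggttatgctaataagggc
Isg15, no call, chr4:156200819-156200978, minus strand: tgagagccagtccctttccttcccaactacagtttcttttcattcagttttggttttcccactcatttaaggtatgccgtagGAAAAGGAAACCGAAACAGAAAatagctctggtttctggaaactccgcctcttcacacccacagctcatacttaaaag

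The matches sat close to the start in several members. In Oas1a overlapping matches began 20 and 14 bases before it, in Gbp2 a match began 59 bases before it, and in Isg15 a run of 3 overlapping matches began 78 bases before it. Ifit1 held separate matches that began 104 and 85 bases before the start, and Ifit3 held them at 156 and 122 bases. The motif thus stood in members that were higher in KI and in members that were lower.

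**Figure D1:**
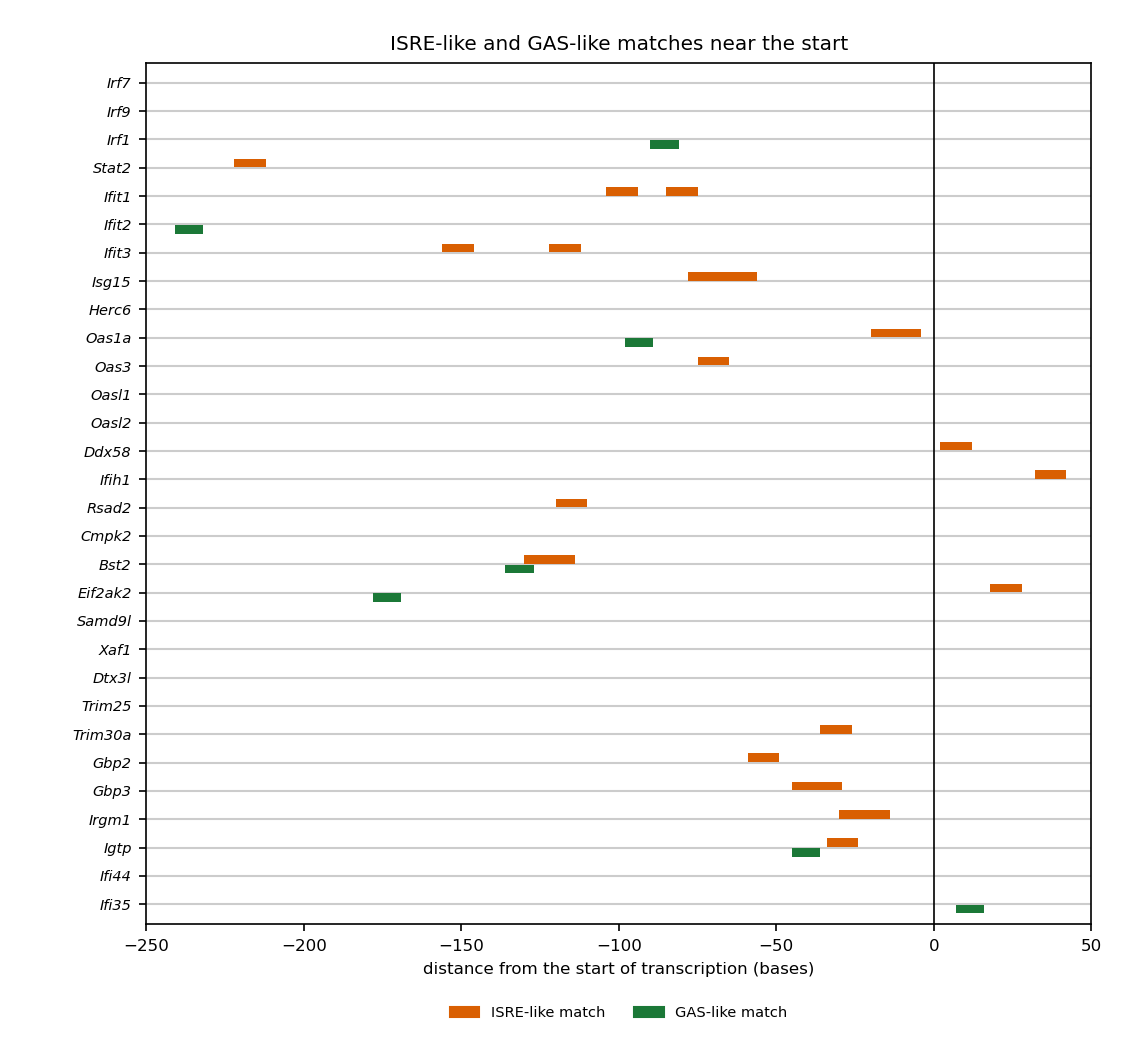
Positions of ISRE-like matches (orange) and GAS-like matches (green) in the windows of the 30 matched members, as distance in bases from the start of transcription, with each grey line 1 window. Most ISRE-like matches lie within 160 bases before the start, and 11 members hold neither motif.

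Calls went almost all one way on control chow and both ways on the ASK1i diet. On control chow 16 of 39 were higher in KI than in WT and 1 was lower, beside a background of 27.8% of all genes higher and 28.9% lower. These are 41.0% and 2.56% of the members, and their median log2 fold change was 0.38, against -0.03 over all genes tested. The list of members was set with earlier results of these data known, so its shares describe it and test no excess. With ASK1i in the chow 9 were higher and 7 lower, beside a background of 30.3% higher and 28.8% lower. These are 23.1% and 17.9% of the members, both below the background with all libraries kept, with a median log2 fold change of 0.04 against 0.0070 over all genes. Without KI ASK1i replicate 5 the counts on that diet were 15 higher and 6 lower, or 38.5% and 15.4% of the members, where all genes gave 31.8% and 31.4%. The higher share was then somewhat above the background, a gap that was not tested. The members' median was 0.10, against 0.003 over all genes.

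The same 8 members were higher in KI on both diets: Stat2, Oas1a, Oas2, Oas3, Oasl2, Parp14, Trim30a and Gbp2. Another 8 were called higher on control chow alone (Irf7, Irf1, Ifit2, Dhx58, Mx1, Gbp3, Irgm1 and Rtp4), and Mx2 on the ASK1i diet alone. All 7 members lower on the ASK1i diet (Ifit1, Ifit3, Usp18, Ifih1, Rsad2, Bst2 and Iigp1) had no call on control chow in the fit of all libraries. A call on 1 diet and not on the other does not show a difference between diets. No member passed the test of that difference, which is given with the diet comparisons. Of the members with a promoter window, 7 of the 11 that were higher in KI on a diet held an ISRE-like match, as did 5 of the 6 that were lower and 4 of the 13 with no call.

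**Figure D2:**
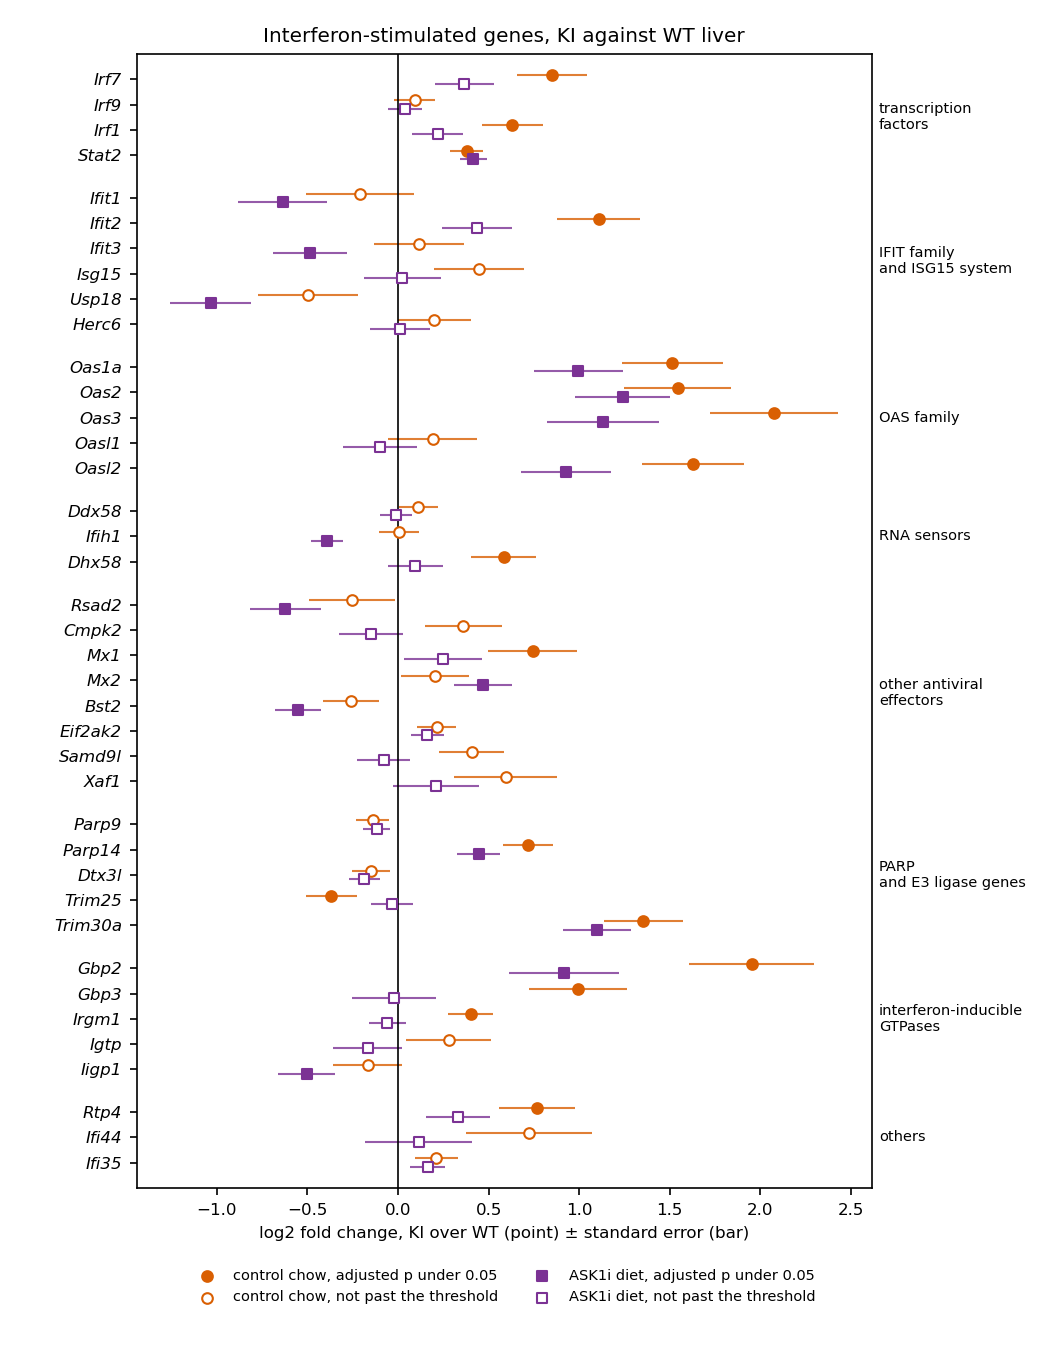
Log2 fold change of KI over WT (points) with SE (bars) for the 39 members in 8 role groups, with control chow as orange circles and the ASK1i diet as purple squares, filled where the adjusted p is under 0.05. The OAS family other than Oasl1, Trim30a and Gbp2 lie far to the right on both diets, between 0.92 and 2.08, while Usp18, Ifit1, Rsad2, Bst2 and Iigp1 lie to the left of 0 on both.

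Counts by role group stand beside the same backgrounds. These are 27.8% of all genes higher and 28.9% lower on control chow, and 30.3% and 28.8% on the ASK1i diet. The groups are small and were not tested against those shares. Among the 4 transcription factors 3 were higher in KI on control chow, while 1 was with the inhibitor. Irf7, the factor that amplifies type I interferon production, read 29.6 to 50.2 CPM (median 40.6) in WT control livers. Its KI control values were 64.6, 68.8, 70.2, 72.1 and 78.2 CPM, all above every WT control library. Irf7 was higher in KI by 0.85 (SE 0.20, adjusted p = 4.95e-04). In mice fed ASK1i Irf7 read 28.6 to 47.9 CPM (median 37.8) in WT and 21.0 to 70.7 CPM (median 47.2) in KI, and the groups overlapped. That difference was 0.37 (SE 0.16, adjusted p = 0.0562), and without KI ASK1i replicate 5, the lowest library at 21.0 CPM, it was 0.46 (SE 0.14, adjusted p = 0.00476). Irf7 also passed there by DESeq2 (adjusted p = 0.0385), with relative log expression scaling (0.0466) and with group as the only term (0.0463).

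Stat2, a subunit of the ISRE-binding complex, showed a small and even difference. It read 45.2 to 60.1 CPM (median 53.1) in WT control and 59.3, 68.0, 68.2, 71.8 and 75.9 CPM in KI control, and 4 of the 5 KI values lay above all WT values. In the ASK1i groups it read 40.4 to 56.7 CPM (median 48.3) in WT and 52.2 to 74.8 CPM (median 63.2) in KI, where 9 of 10 KI libraries lay above all 8 WT libraries. The differences were 0.38 (SE 0.089, adjusted p = 6.28e-04) on control chow and 0.41 (SE 0.074, adjusted p = 2.05e-05) on the ASK1i diet, or 0.43 (adjusted p = 1.03e-05) without replicate 5. Irf1, a factor induced mainly by interferon gamma, read 34.0 to 55.8 CPM (median 45.7) in WT control and 61.5, 65.3, 67.8, 71.3 and 108 CPM in KI control, again without overlap. Its difference was 0.63 (SE 0.17, adjusted p = 0.00191) on control chow and 0.22 (SE 0.14, adjusted p = 0.179) on the ASK1i diet, or 0.31 (SE 0.12, adjusted p = 0.0281) without replicate 5. Irf9, the DNA-binding subunit of the ISRE complex, gave 0.093 (SE 0.11, adjusted p = 0.502) and 0.040 (SE 0.095, adjusted p = 0.734) on the respective diets.

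The IFIT family and the ISG15 system were divided. The IFIT proteins bind viral RNA, ISG15 is a ubiquitin-like tag, HERC6 attaches it in mice and USP18 removes it and dampens receptor signalling. Of these 6 genes 1 was higher in KI on control chow and 0 were lower, and on the ASK1i diet 0 were higher and 3 lower. Ifit2 read 4.52 to 8.05 CPM (median 6.86) in WT control and 7.54, 11.9, 13.9, 16.1 and 17.5 CPM in KI control, with 4 of 5 KI values above all WT values. It was higher in KI by 1.11 (SE 0.23, adjusted p = 1.47e-04) on control chow. Under the inhibitor Ifit2 read 4.20 to 8.29 CPM (median 6.23) in WT and 4.30 to 12.6 CPM (median 8.64) in KI, a difference of 0.44 (SE 0.19, adjusted p = 0.0521), or 0.52 (SE 0.18, adjusted p = 0.0123) without replicate 5. That difference also passed in the numbered libraries alone (0.69, adjusted p = 0.0228) and by DESeq2 (0.46, adjusted p = 0.0369).

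Usp18 ran the other way. It read 8.21 to 27.9 CPM (median 13.0) in WT ASK1i and 4.00 to 11.1 CPM (median 7.08) in KI ASK1i, and 6 of 10 KI libraries lay below all 8 WT libraries. Usp18 was lower in KI on that diet, with a log2 fold change of -1.03 (SE 0.22, adjusted p = 2.31e-04), a ratio of 0.488, and of -1.10 (adjusted p = 1.51e-04) without replicate 5. On control chow it read 6.93 to 19.8 CPM (median 14.4) in WT and 6.95, 8.04, 8.89, 9.74 and 11.0 CPM in KI, where the groups overlapped, with -0.50 (SE 0.28, adjusted p = 0.127). With the numbered libraries alone, which leaves out the highest WT library, Usp18 on the ASK1i diet gave a log2 fold change of -0.53 and an adjusted p of 0.0753, and with the male libraries alone -0.66 and 0.0796.

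Ifit1 and Ifit3, neighbours of Ifit2 on chromosome 19 (mm10, chr19:34640889-34650009 and chr19:34583529-34588982, with Ifit2 at chr19:34550694-34576534), differed from it. Ifit1 read 5.32 to 13.9 CPM (median 8.20) in WT control and 4.81, 6.96, 7.05, 7.43 and 9.43 CPM in KI control. It read 5.19 to 10.1 CPM (median 8.50) in WT ASK1i and 1.68 to 9.29 CPM (median 5.02) in KI ASK1i, where 5 of 10 KI libraries lay below all WT libraries. The difference was -0.21 (SE 0.30, adjusted p = 0.565) on control chow and -0.64 (SE 0.24, adjusted p = 0.0255) on the ASK1i diet. Without KI ASK1i replicate 5 the second value was -0.66 (adjusted p = 0.0234). That call ended without KI ASK1i replicate 3, 6, 1P or 4P or without WT ASK1i replicate 1P, with adjusted p-values up to 0.0680, and with the L code as a term (0.238), in the numbered libraries (0.198) and in males alone (0.0555). It also ended in the ASK1i diet libraries alone (0.0579) and with the replicate number in place of title set as a term (0.0678).

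Ifit3 read 10.4 to 21.1 CPM (median 17.7) in WT ASK1i and 6.41 to 22.3 CPM (median 11.6) in KI ASK1i, a difference of -0.49 (SE 0.21, adjusted p = 0.0425). On control chow, where it read 10.8 to 23.0 CPM (median 16.4) in WT and 9.07, 16.6, 18.4, 22.7 and 23.7 CPM in KI, it gave 0.12 (SE 0.25, adjusted p = 0.708). The Ifit3 call is borderline: it ended in 21 of the 33 fits that left out a library, KI ASK1i replicate 5 among them, with adjusted p-values up to 0.114 (-0.45 (adjusted p = 0.0652) without replicate 5), and under 7 of the other alternatives, among them the numbered libraries alone (0.435) and DESeq2 (0.0529). Isg15 gave 0.45 (SE 0.25, adjusted p = 0.129) and 0.023 (SE 0.21, adjusted p = 0.936) on control chow and the ASK1i diet, and Herc6 gave 0.20 (SE 0.20, adjusted p = 0.404) and 0.011 (SE 0.17, adjusted p = 0.959), so neither was called. RSEM divides reads among similar genes, and the IFIT, OAS, MX, GBP, TRIM30 and IRG families hold close copies, so single members of them carry that uncertainty.

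Of the role groups the OAS family had the largest share of higher members on each diet, 4 of 5. OAS enzymes make 2′-5′-linked oligoadenylate on double-stranded RNA, which activates RNase L, an activity that mouse OASL2 keeps and OASL1 lacks. Oas3 read 0.990 to 3.52 CPM (median 1.77) in WT control and 4.92, 6.97, 9.34, 9.64 and 10.5 CPM in KI control, with no overlap. It was higher by 2.08 (SE 0.35, adjusted p = 1.36e-05), a ratio of 4.22. On the ASK1i diet Oas3 read 1.43 to 3.38 CPM (median 2.54) in WT and 1.57 to 9.49 CPM (median 6.25) in KI, and 7 of 10 KI libraries lay above all WT libraries. The difference there was 1.13 (SE 0.31, adjusted p = 0.00241), or 1.25 (SE 0.28, adjusted p = 3.38e-04) without replicate 5.

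Oas2 read 5.18 to 9.15 CPM (median 7.77) in WT control and 11.6, 12.5, 24.8, 25.6 and 26.0 CPM in KI control, which fell into a lower pair (replicates 3 and 4) and 3 higher values, all above WT. With ASK1i in the chow it read 4.39 to 7.58 CPM (median 6.68) in WT and 5.10 to 23.9 CPM (median 16.3) in KI, with replicates 5, 6 and 4P inside the WT range. Oas2 was higher in KI by 1.54 (SE 0.29, adjusted p = 6.18e-05) on control chow and by 1.24 (SE 0.26, adjusted p = 1.58e-04) on the ASK1i diet, or 1.34 (adjusted p = 2.55e-05) without replicate 5. Oas1a followed, at 2.34 to 5.31 CPM (median 3.98) in WT control and 7.48, 8.61, 12.0, 12.8 and 14.0 CPM in KI control without overlap. It read 2.23 to 5.66 CPM (median 3.78) in WT ASK1i and 2.77 to 12.1 CPM (median 7.65) in KI ASK1i. The differences were 1.51 (SE 0.28, adjusted p = 3.41e-05) and 1.00 (SE 0.24, adjusted p = 8.24e-04) on the respective diets, and 1.09 (adjusted p = 1.12e-04) on the second without replicate 5.

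Oasl2, an OAS-like gene, read 4.09 to 9.61 CPM (median 6.65) in WT control and 13.0, 20.4, 21.1, 24.0 and 24.7 CPM in KI control, again without overlap, and was higher by 1.63 (SE 0.28, adjusted p = 1.77e-05). In mice fed ASK1i it read 5.66 to 8.59 CPM (median 6.94) in WT and 5.33 to 23.5 CPM (median 13.9) in KI, where replicates 6 and 4P lay below all WT libraries and 7 lay above them. It was higher by 0.93 (SE 0.25, adjusted p = 0.00203), or 1.02 (adjusted p = 3.88e-04) without replicate 5. Oasl1, which restrains translation of Irf7, had no call in the fit of all libraries. It read 7.28 to 24.2 CPM (median 13.4) in WT control and 13.5, 13.9, 14.2, 15.1 and 18.6 CPM in KI control and gave 0.19 (SE 0.25, adjusted p = 0.528) and -0.10 (SE 0.20, adjusted p = 0.695) on control chow and the ASK1i diet. With the L code as a term Oasl1 was higher on both diets (0.68 and 0.42, adjusted p of 0.0367 and 0.0422), and in males alone on control chow (0.80, adjusted p = 0.02997). With male libraries alone, the ASK1i diet calls of Oas2, Oas3 and Oasl2 ended (log2 fold changes of 1.15, 1.02 and 0.78, adjusted p of 0.0503, 0.0754 and 0.0928).

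Of the 3 cytoplasmic RNA sensors 1 was higher in KI on control chow and 1 lower with the inhibitor. Each was 33.3% of the group, near the backgrounds of 27.8% higher and 28.8% lower. Ifih1, which encodes the long double-stranded RNA sensor MDA5, read 26.8 to 46.1 CPM (median 30.9) in WT control and 25.6, 33.7, 34.6, 35.5 and 36.7 CPM in KI control, with 0.0045 (SE 0.11, adjusted p = 0.976). In the ASK1i groups it read 30.3 to 52.1 CPM (median 39.4) in WT and 23.7 to 37.9 CPM (median 31.7) in KI, and every KI library lay below the WT mean. It was lower in KI there, at -0.39 (SE 0.089, adjusted p = 4.14e-04), or -0.36 (adjusted p = 7.98e-04) without replicate 5. Dhx58, which encodes the regulator LGP2, read 5.71 to 13.0 CPM (median 9.67) in WT control and 12.8, 13.1, 13.8, 13.9 and 18.8 CPM in KI control, with 4 of 5 KI values above all WT values. Dhx58 was higher by 0.58 (SE 0.18, adjusted p = 0.00708) on control chow and gave 0.095 (SE 0.15, adjusted p = 0.612) on the ASK1i diet. The Dhx58 call ended in the numbered libraries alone (adjusted p = 0.0985). Ddx58, which encodes RIG-I, read 33.3 to 44.2 CPM (median 36.7) in WT control and 29.8, 37.4, 42.0, 46.0 and 49.3 CPM in KI control and gave 0.11 (SE 0.11, adjusted p = 0.392) and -0.010 (SE 0.088, adjusted p = 0.931). In males alone it was higher on control chow, at 0.43 with an adjusted p of 0.0032.

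Of 8 other antiviral effectors 1 was higher in KI on control chow, and 1 was higher and 2 lower on the ASK1i diet. These shares (12.5%, 12.5% and 25%) lay below the backgrounds of 27.8%, 30.3% and 28.8%. Bst2 encodes tetherin, which holds budding virus at the cell surface. It read 65.5 to 119.8 CPM (median 84.9) in WT control and 59.0, 71.8, 72.6, 82.3 and 93.5 CPM in KI control, which overlapped, with -0.26 (SE 0.15, adjusted p = 0.148). In a fit of the control chow libraries alone Bst2 was lower in KI, at -0.45 with an adjusted p of 0.0032. Under the inhibitor Bst2 read 72.6 to 119 CPM (median 93.8) in WT and 38.4 to 85.5 CPM (median 66.5) in KI, and 8 of 10 KI libraries lay below all 8 WT libraries. It was lower in KI, at -0.55 (SE 0.12, adjusted p = 3.54e-04), or -0.63 (SE 0.12, adjusted p = 2.45e-05) without replicate 5, the highest KI library at 85.5 CPM.

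Rsad2 encodes viperin, an enzyme that makes a chain-terminating nucleotide. It read 6.29 to 16.2 CPM (median 10.9) in WT control, 4.67, 5.99, 8.25, 9.18 and 12.4 CPM in KI control, 5.23 to 12.7 CPM (median 8.75) in WT ASK1i and 2.20 to 11.7 CPM (median 4.84) in KI ASK1i. The difference was -0.25 (SE 0.24, adjusted p = 0.369) on control chow and -0.62 (SE 0.20, adjusted p = 0.00763) on the ASK1i diet, or -0.74 (SE 0.19, adjusted p = 0.00106) without replicate 5, again the highest KI library at 11.7 CPM. Cmpk2, its neighbour on chromosome 12, gave 0.36 (SE 0.21, adjusted p = 0.152) and -0.15 (SE 0.18, adjusted p = 0.484). With the L code in place of title set as a term, Rsad2 on the ASK1i diet gave -0.46 with an adjusted p of 0.0840, and in the numbered libraries alone -0.56 with 0.0758.

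Mx1 and Mx2 are dynamin-like GTPases that trap viral ribonucleoproteins. Mx1 read 1.62 to 5.41 CPM (median 2.84) in WT control and 2.59, 3.05, 3.82, 6.22 and 7.46 CPM in KI control, with only 2 KI values above all WT values. Its control chow difference was 0.74 (SE 0.25, adjusted p = 0.0112), and the call ended without KI control replicate 1 (adjusted p = 0.0840) or 2 (0.0508), the 2 libraries that were high, in the numbered libraries (0.0610) and in males alone (0.267). It also ended with group as the only term and with the replicate number in place of title set as a term (0.0608). On the ASK1i diet Mx1 gave 0.25 (SE 0.21, adjusted p = 0.324). Mx2 read 3.01 to 5.05 CPM (median 4.25) in WT ASK1i and 3.11 to 8.04 CPM (median 5.88) in KI ASK1i, with 7 of 10 KI libraries above all WT libraries. It was higher in KI on that diet by 0.47 (SE 0.16, adjusted p = 0.0126), or 0.56 (adjusted p = 0.00119) without replicate 5, and gave 0.21 (SE 0.19, adjusted p = 0.362) on control chow. With the numbered libraries alone the Mx2 difference on the ASK1i diet was 0.24, with an adjusted p of 0.280. With the replicate number in place of title set as a term it was 0.37, with an adjusted p of 0.0603. Samd9l, Xaf1 and Eif2ak2 (PKR) were not called on either diet in the fit of all libraries. Samd9l (0.56, adjusted p = 6.26e-04) was higher on control chow when those libraries alone were fitted, and also by DESeq2, limma-voom and relative log expression scaling (adjusted p of 0.0404, 0.0417 and 0.0460). Eif2ak2 was higher on control chow in males alone (0.41, adjusted p = 0.00875) and with group as the only term (0.23, adjusted p = 0.0470). Without replicate 5 it was higher on the ASK1i diet, at 0.21 (adjusted p = 0.0328). Xaf1, a pro-apoptotic gene, read 7.54 to 14.4 CPM (median 11.4) in WT control and 15.0, 17.4, 18.2, 18.9 and 21.6 CPM in KI control, without overlap, yet its difference with sex and title set as terms was 0.59 (SE 0.28, adjusted p = 0.0741). It was higher with group as the only term (0.65, adjusted p = 0.0350) and in the control chow libraries alone (0.69, adjusted p = 0.00126).

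Among the PARP and E3 ligase genes 2 were higher and 1 lower in KI on control chow, and 2 were higher and 0 lower on the ASK1i diet. Trim30a, an inhibitor of Toll-like receptor signalling, read 9.00 to 12.6 CPM (median 10.7) in WT control and 21.2, 25.6, 26.5, 28.9 and 33.6 CPM in KI control. With ASK1i in the chow it read 7.03 to 12.4 CPM (median 9.66) in WT and 7.83 to 30.4 CPM (median 23.1) in KI, with replicate 5 the lowest at 7.83 CPM. No KI control library overlapped WT, and 8 of 10 KI ASK1i libraries lay above all WT libraries. Trim30a was higher by 1.35 (SE 0.22, adjusted p = 6.13e-06) and 1.10 (SE 0.19, adjusted p = 1.07e-05) on the respective diets, the smallest adjusted p among the members on each, and by 1.202 (adjusted p = 6.35e-08) on the second without replicate 5.

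Parp14, which encodes an ADP-ribosyltransferase, read 43.1 to 51.5 CPM (median 47.4) in WT control and 64.4, 67.2, 83.2, 84.8 and 90.0 CPM in KI control, without overlap. In mice fed ASK1i it read 43.2 to 54.4 CPM (median 48.0) in WT and 38.2 to 99.2 CPM (median 63.2) in KI. It was higher by 0.72 (SE 0.14, adjusted p = 7.53e-05) and 0.45 (SE 0.12, adjusted p = 0.00168) on the respective diets, and by 0.52 (adjusted p = 4.41e-05) on the second without replicate 5. Its neighbours Parp9 (chr16:35938470-35972621) and Dtx3l (chr16:35926515-35939027), whose products form a complex, gave -0.14 (SE 0.091, adjusted p = 0.196) and -0.15 (SE 0.11, adjusted p = 0.237) on control chow, neither of them called. With group as the only term Parp9 was lower there (-0.22, adjusted p = 0.0422), and in males alone Dtx3l was lower on the ASK1i diet (-0.29, adjusted p = 0.0379). The coordinates of Parp9 and Dtx3l overlap, and no source used here says whether counting used strand. Trim25, the E3 ligase that activates RIG-I, read 81.5 to 167 CPM (median 121) in WT control and 73.0, 84.6, 87.2, 88.3 and 102 CPM in KI control, and was lower, at -0.37 (SE 0.14, adjusted p = 0.0261). This call ended without WT control replicate 1 or 8 or KI control replicate 1, 3 or 4 (adjusted p-values up to 0.0744), and in males alone (0.381). It also ended in the control chow libraries alone (0.08635) and with the replicate number in place of title set as a term (0.0707). Trim25 gave -0.033 (SE 0.11, adjusted p = 0.819) on the ASK1i diet.

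The interferon-inducible GTPases, which attack the vacuoles of intracellular pathogens and respond strongly to interferon gamma, had 3 of 5 higher in KI on control chow and 1 higher and 1 lower on the ASK1i diet. Gbp2 read 6.91 to 17.3 CPM (median 10.8) in WT control and 21.4, 29.6, 43.6, 56.8 and 64.1 CPM in KI control, without overlap. It was higher by 1.95 (SE 0.35, adjusted p = 2.55e-05), a ratio of 3.87. In the ASK1i groups Gbp2 read 7.48 to 32.1 CPM (median 12.6) in WT and 6.49 to 47.4 CPM (median 29.7) in KI, and the highest WT library reached into the KI range. The difference there was 0.92 (SE 0.30, adjusted p = 0.0109), or 1.05 (adjusted p = 0.00131) without replicate 5, and in males alone 0.92 with an adjusted p of 0.0765.

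Gbp3 read 7.39 to 16.4 CPM (median 9.90) in WT control and 13.4, 19.2, 21.6, 28.6 and 29.0 CPM in KI control, and was higher by 0.99 (SE 0.27, adjusted p = 0.00269). Under the inhibitor, at 7.71 to 22.0 CPM (median 15.0) in WT and 5.39 to 23.1 CPM (median 14.3) in KI, it gave -0.022 (SE 0.23, adjusted p = 0.942). The control chow difference of Gbp3 in males alone was 0.60, with an adjusted p of 0.266. Irgm1 read 40.7 to 64.5 CPM (median 51.6) in WT control and 54.0, 57.8, 66.0, 87.8 and 102 CPM in KI control, and was higher by 0.40 (SE 0.12, adjusted p = 0.00692). The Irgm1 call ended without KI control replicate 3, the highest library (adjusted p = 0.0538). It also ended in the control chow libraries alone (0.30, adjusted p = 0.1096). Igtp read 40.03, 41.1, 44.0, 85.7 and 129.6 CPM in KI control, where replicates 2 and 3 lay above all WT libraries and the other 3 inside their range, and gave 0.28 (SE 0.23, adjusted p = 0.317).

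Iigp1, an immunity-related GTPase of vacuole membranes, read 201 to 368 CPM (median 258) in WT control and 201, 204, 228, 301 and 336 CPM in KI control, with -0.17 (SE 0.19, adjusted p = 0.471). On the ASK1i diet it read 219 to 383 CPM (median 332) in WT and 161 to 389 CPM (median 182) in KI, and 6 of 10 KI libraries lay below all WT libraries. Iigp1 was lower in KI there, at -0.51 (SE 0.16, adjusted p = 0.00658), or -0.49 (adjusted p = 0.00976) without replicate 5, but gave -0.36 with an adjusted p of 0.138 in the numbered libraries alone and -0.64 with 0.0550 in males alone. Among the remaining 3 members, Rtp4, a chaperone of receptors that restrains flaviviruses, read 9.50 to 15.7 CPM (median 12.4) in WT control and 15.0, 19.1, 21.5, 24.3 and 28.1 CPM in KI control. Rtp4 was higher by 0.77 (SE 0.21, adjusted p = 0.00281) on control chow and gave 0.33 (SE 0.18, adjusted p = 0.109) on the ASK1i diet, or 0.40 (SE 0.17, adjusted p = 0.0494) without replicate 5. In males alone its control chow difference was 0.76, with an adjusted p of 0.0997. Ifi44, a gene that interferon alpha induces, read 1.49 to 4.39 CPM (median 2.60) in WT control, 2.98, 3.41, 3.84, 4.44 and 6.64 CPM in KI control, 1.24 to 4.48 CPM (median 2.34) in WT ASK1i and 0.551 to 5.42 CPM (median 2.77) in KI ASK1i, and the groups overlapped. It gave 0.72 (SE 0.35, adjusted p = 0.0775) and 0.11 (SE 0.30, adjusted p = 0.761) on the respective diets, and in the control chow libraries alone 0.79 with an adjusted p of 0.00518. Ifi35 read 16.3 to 23.4 CPM (median 20.6) in WT control, 18.5, 23.0, 23.8, 28.7 and 30.9 CPM in KI control, 18.2 to 24.5 CPM (median 19.8) in WT ASK1i and 16.2 to 28.2 CPM (median 22.3) in KI ASK1i, again with overlap. It gave 0.21 (SE 0.12, adjusted p = 0.124) and 0.16 (SE 0.10, adjusted p = 0.143), and was higher on the ASK1i diet without replicate 5 at 0.21 (adjusted p = 0.0400) and in males alone at 0.35 (adjusted p = 0.0198).

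**Figure D3:**
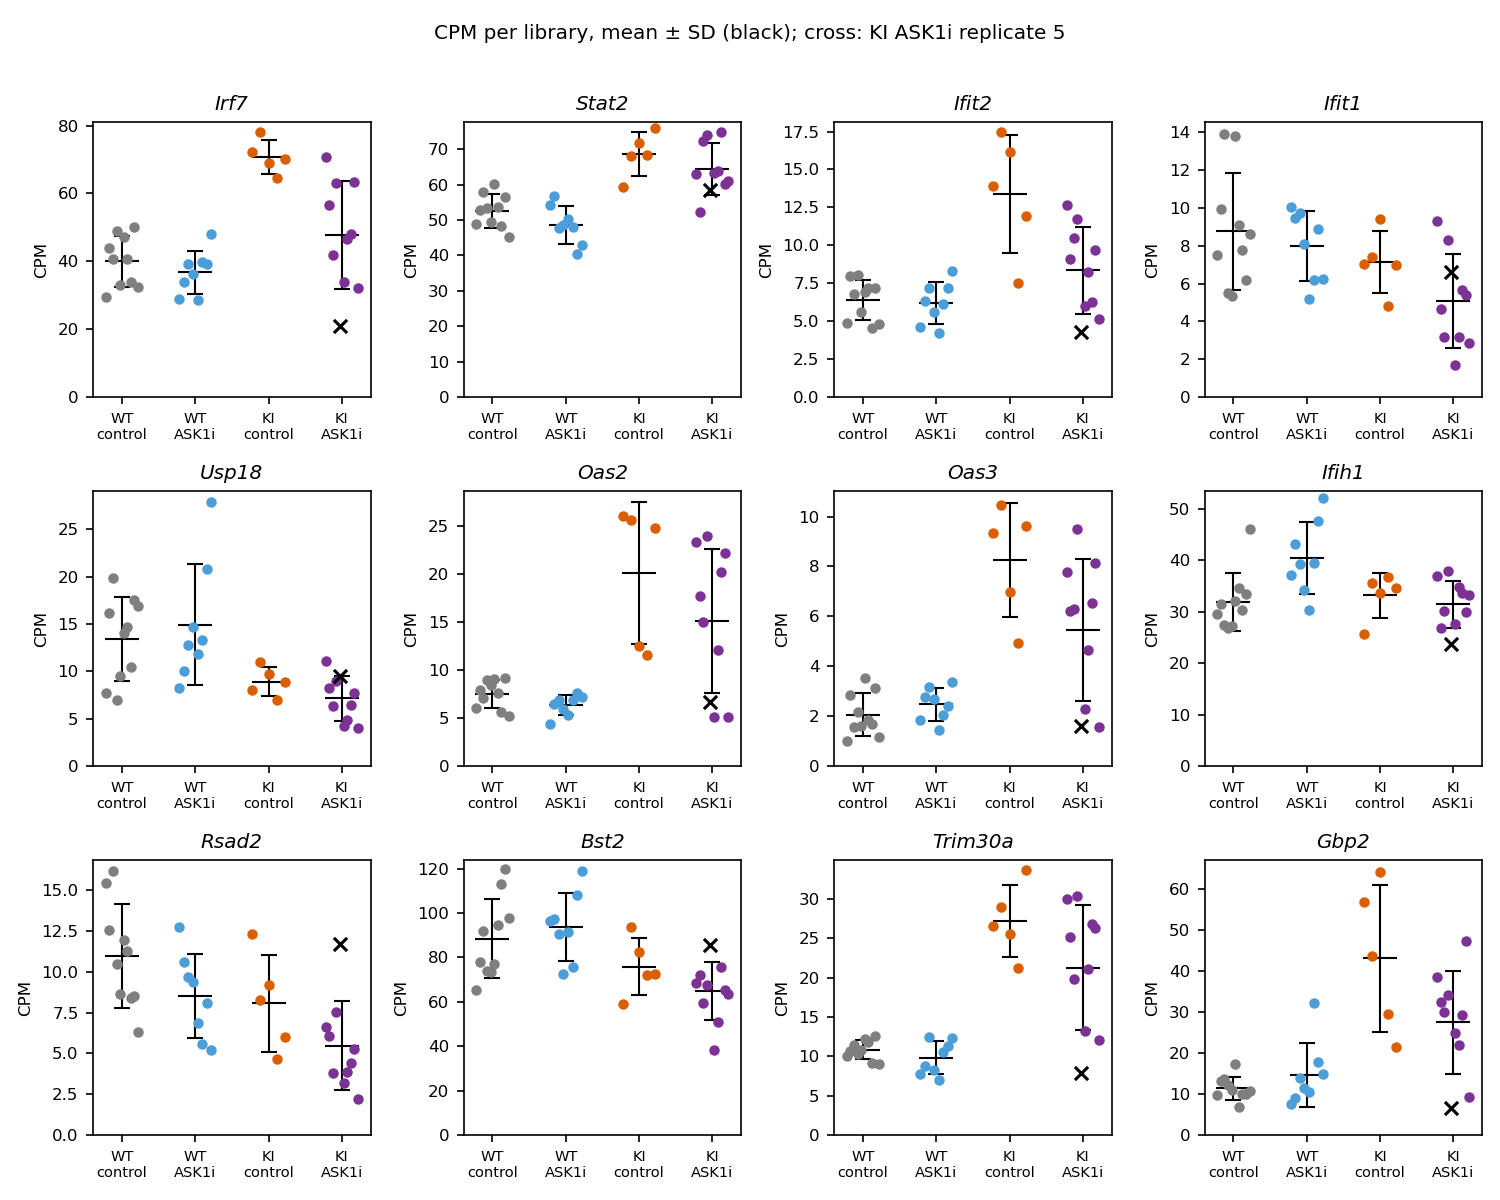
CPM per library (points) of 12 members in the 4 groups, with mean and SD in black and KI ASK1i replicate 5 as a cross. Oas2, Oas3, Trim30a and Gbp2 lie clear of WT control in all 5 KI control libraries, while KI ASK1i libraries spread from the WT level up to the KI control level.

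Over all members, 10 had every KI control library above every WT control library: Irf7, Irf1, Oas1a, Oas2, Oas3, Oasl2, Xaf1, Parp14, Trim30a and Gbp2. That is 10 of 39, beside 16.3% of all genes tested, and 0 members had every KI control library below every WT library, beside 12.8% of all genes. The KI ASK1i libraries varied most: the median SD of log2 CPM over members was 0.49 there (0.44 without replicate 5) against 0.28 to 0.30 in the other 3 groups. Over all genes those medians were 0.32 (0.27 without replicate 5) and 0.23 to 0.26.

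The spread within KI ASK1i ran through many members at once. Over the 8 members that were higher on both diets, the median log2 difference from the WT ASK1i mean was -0.31 in replicate 5, 0.12 in replicate 6 and -0.14 in replicate 4P. In the other 7 KI ASK1i libraries it lay between 0.84 and 1.67, and in the 5 KI control libraries, against the WT control mean, between 0.95 and 1.77. Over the 7 members that were lower on the ASK1i diet, the same median was lowest in replicates 4P (-1.40) and 6 (-1.30). Replicate 1 was highest, at -0.11, and was also the highest KI ASK1i library in 17 of the 39 members. These members were chosen by the comparison of the same libraries, so the medians describe the libraries and test nothing. Replicates 6 and 4P differed from replicate 5 in that they lay with the KI libraries over all genes (57.9 and 54.9 on the first principal component).

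**Figure D4:**
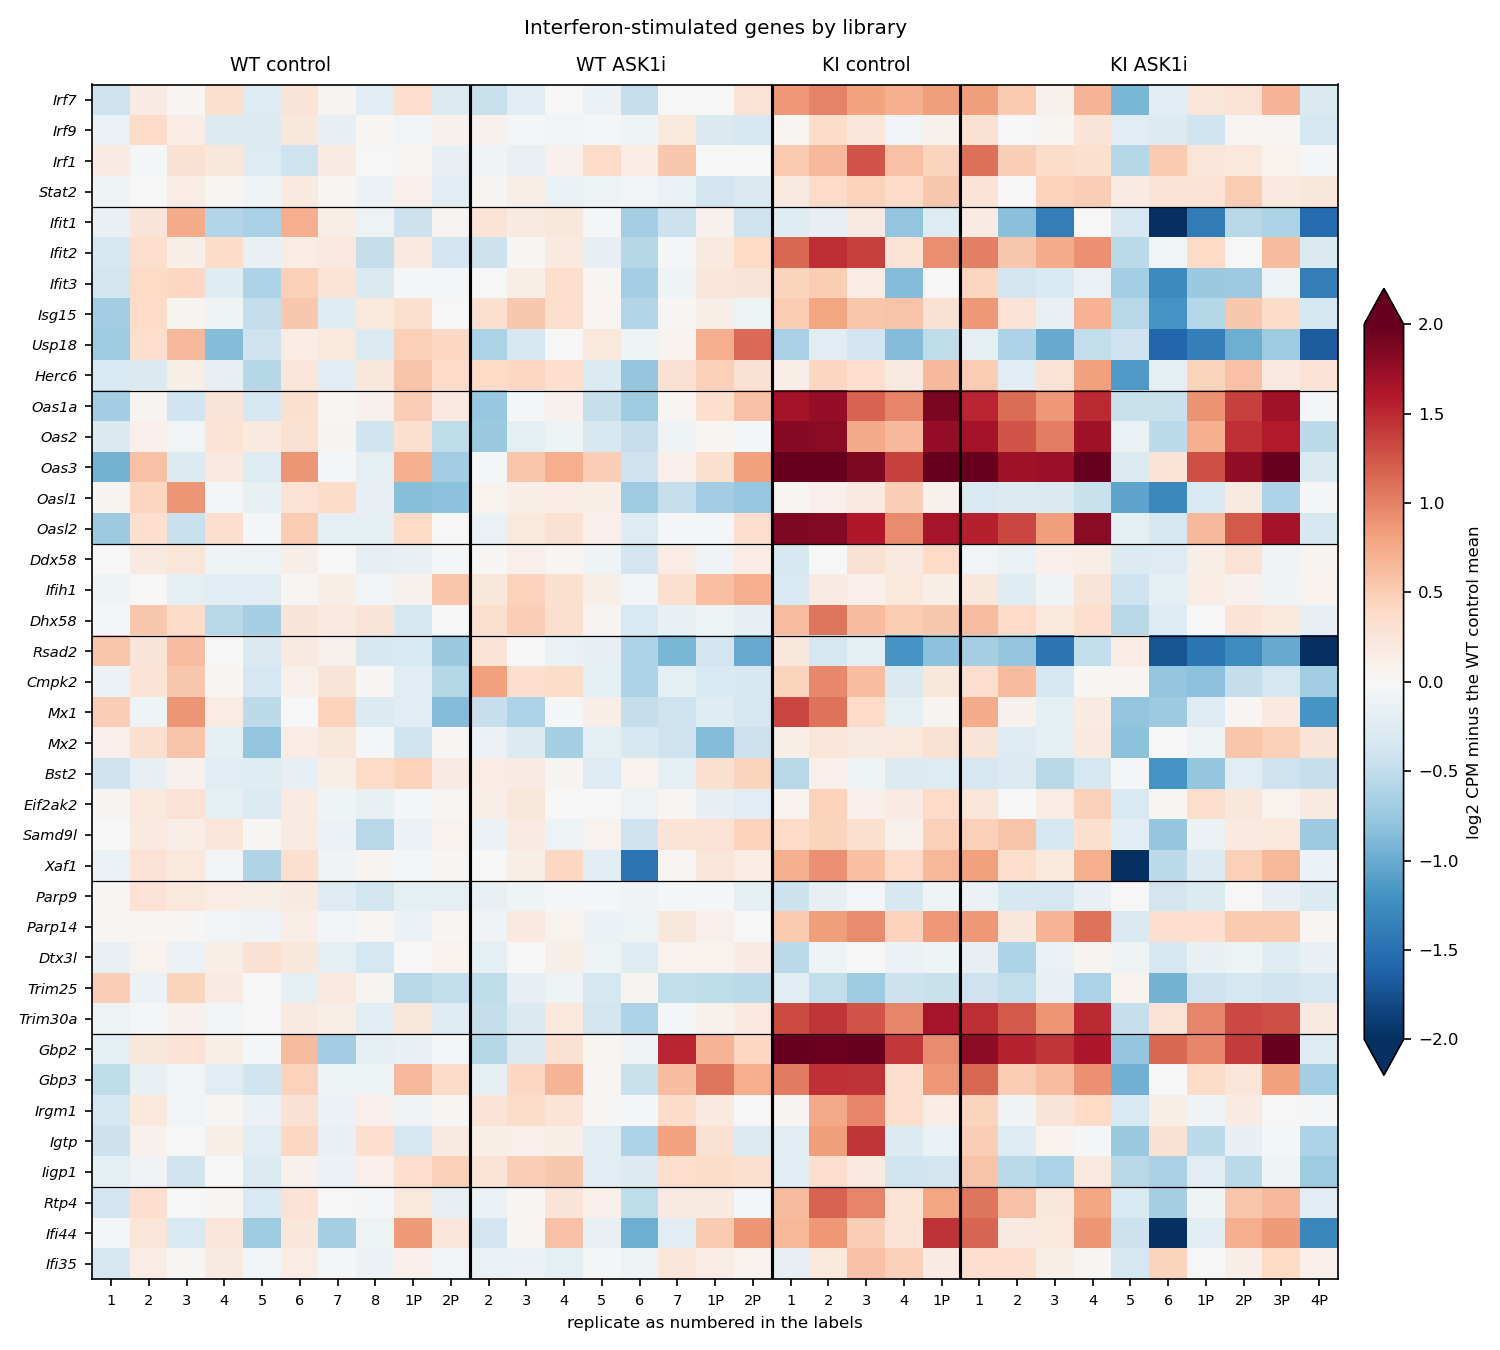
Log2 CPM of each member (rows, by role group) in each library (columns, by group and replicate) minus the WT control mean, red above and blue below, with the colour scale ending at -2 and 2. KI control columns are red in the Oas1a, Oas2, Oas3, Oasl2, Trim30a and Gbp2 rows, and KI ASK1i columns 5, 6 and 4P are pale or blue in these rows except Gbp2 in column 6, while Ifit1, Usp18 and Rsad2 are blue in most KI ASK1i columns.

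The L codes in the library titles, whose meaning is not stated, follow the groups. WT control and KI control have no code in common, so that comparison has no value within a code. With the L code in place of title set as a term, the control chow counts were 10 higher and 0 lower. Fewer genes of the whole table were called in that fit too, as given under processing, so the background shares above do not apply. The calls of Irf7, Irf1, Oas1a, Mx1, Gbp2, Gbp3, Irgm1, Rtp4 and Trim25 ended in that fit, with adjusted p-values from 0.0689 (Oas1a) to 0.474 (Trim25), and Oasl1 (0.68, adjusted p = 0.0367) and Cmpk2 (0.90, adjusted p = 0.0294) were called higher. With ASK1i in the chow, code L1 held 4 KI and 2 WT libraries. There the mean log2 difference was 0.80 for Oas2, 0.64 for Oas3, 0.80 for Trim30a, -2.10 for Usp18, -0.86 for Ifit1 and -0.85 for Bst2, the same directions as over all libraries. Code L7 held 1 KI library (replicate 1) and 2 WT libraries, where Oas2 differed by 1.94. Of the 7 members that were lower on the ASK1i diet, Usp18 (-0.18) and Bst2 (-0.28) were below 0 in L7. Ifit3 (0.81), Ifit1 (0.71), Iigp1 (0.52), Rsad2 (0.10) and Ifih1 (0.09) were above it there.

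No member passed the test of the ASK1i diet in WT livers. There 0 were higher and 0 lower, beside 1.13% and 0.268% of all genes, with 3 members at an unadjusted p under 0.05 and a median log2 fold change of 0.0010. Those 3 were Ifih1 (0.30, SE 0.091, adjusted p = 0.0997), Mx2 (-0.42, SE 0.16, adjusted p = 0.208) and Trim25 (-0.28, SE 0.12, adjusted p = 0.261). In a fit of the WT libraries alone Ifih1 passed, at 0.29 with an adjusted p of 0.0311. DESeq2 called 0 members in WT and limma-voom 0, with 3 at an unadjusted p under 0.05 by each.

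In KI livers, too, 0 members were higher and 0 lower on the ASK1i diet, beside 0% and 0.0536% of all genes. Unadjusted, 14 members were under 0.05, and the lowest adjusted p was 0.365, for Irf7. The log2 fold change was below 0 in 38 of the 39 members, with a median of -0.40 against 0.03 over all genes tested. The members were measured in the same libraries, so these 38 are not independent of each other. Without KI ASK1i replicate 5 again 38 were below 0, with a median of -0.35, 13 under an unadjusted 0.05 and a lowest adjusted p of 0.340. DESeq2 called 0 members, with 15 under an unadjusted 0.05, and limma-voom 0, with 20.

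Irf7 shows what lies behind these values: the 5 KI control libraries lay between 64.6 and 78.2 CPM, while the KI ASK1i libraries spread from 21.0 to 70.7 CPM. That is a difference of -0.60 (SE 0.19, adjusted p = 0.365) with an interval of 2 SE from -0.98 to -0.22. Mx1 gave -0.74 (SE 0.24, adjusted p = 0.400), Ifit2 gave -0.69 (SE 0.22, adjusted p = 0.376) and Oas3 gave -0.66 (SE 0.34, adjusted p = 0.501). Usp18 gave -0.40 (SE 0.26, adjusted p = 0.567) and Stat2 -0.079 (SE 0.087, adjusted p = 0.724), and Trim25 alone had a value above 0 (0.056, SE 0.13, adjusted p = 0.889). Within L codes, the median over members of the KI diet difference was -0.34 in L1 (4 ASK1i and 1 control library) and 0.07 in L7 (1 and 4), and of the WT diet difference 0.01 in L6 (4 and 4).

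The interaction is the KI minus WT difference on the ASK1i diet minus that on control chow, on the log2 scale, so a value below 0 means a difference that was higher on control chow. The test called 0 members in either direction, beside 0% of all genes in each, with 7 members at an unadjusted p under 0.05 and a lowest adjusted p of 0.478. The interaction was below 0 in 35 of the 39 members, with a median of -0.41 against 0.02 over all genes. Both comparisons use the same libraries as those given above. The lowest values were those of Gbp2 (-1.03, SE 0.47, adjusted p = 0.571), Gbp3 (-1.02, SE 0.36, adjusted p = 0.478) and Oas3 (-0.95, SE 0.47, adjusted p = 0.610), and Irgm1 (-0.46, SE 0.16, adjusted p = 0.478) had the smallest unadjusted p. DESeq2 called 0 members with 8 under an unadjusted 0.05, and limma-voom 0 with 9. The genotype difference was thus not shown to differ between the diets, which does not show that it was equal on both.

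**Figure D5:**
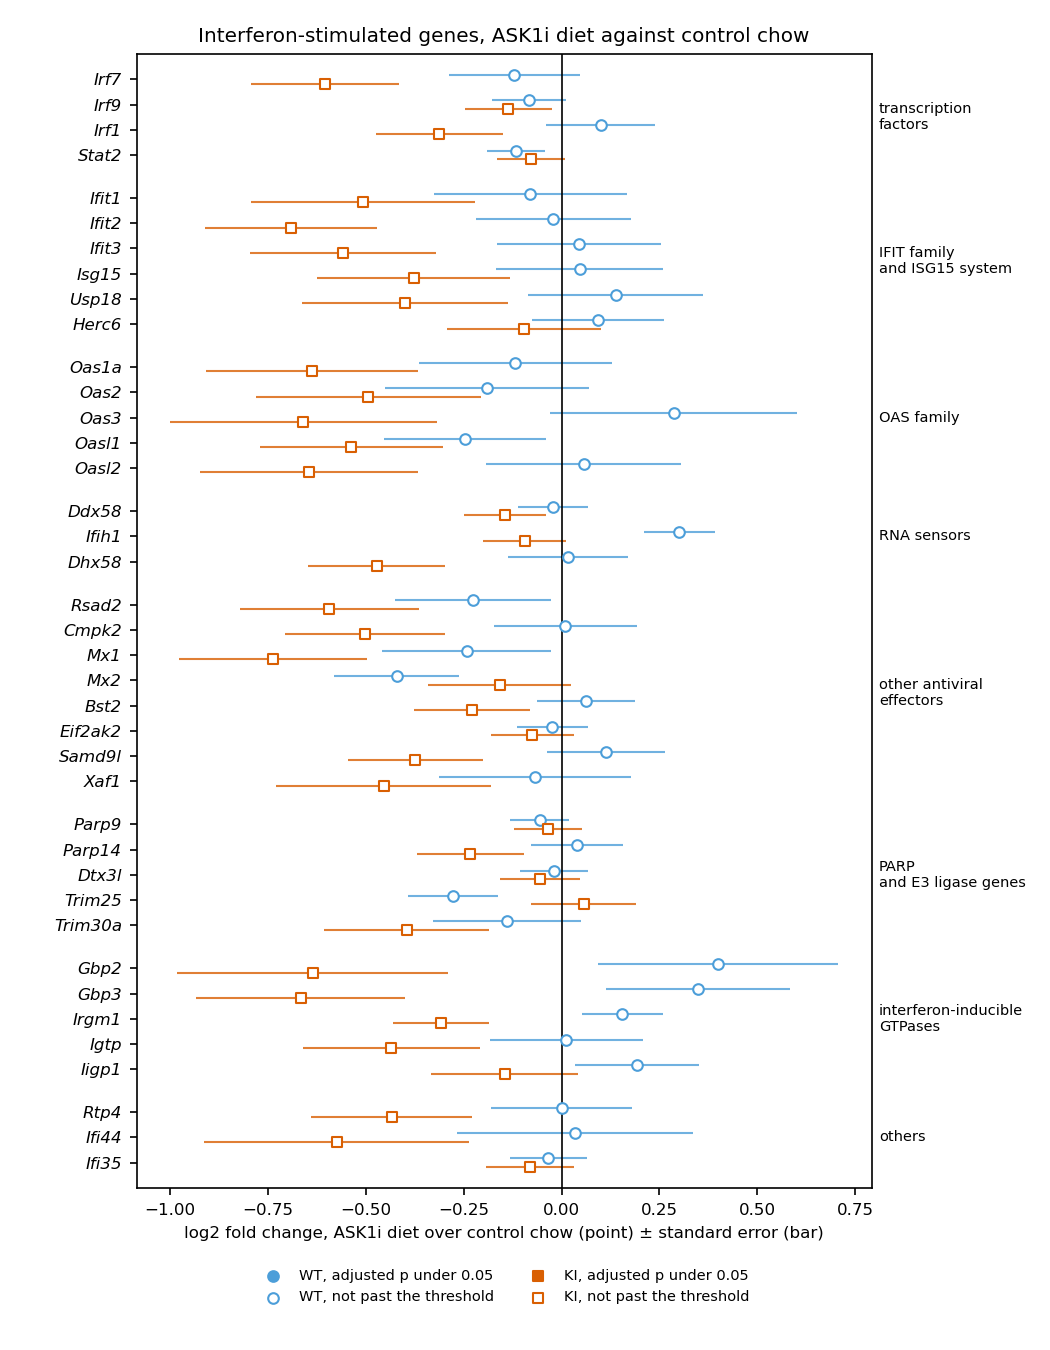
Log2 fold change of the ASK1i diet over control chow (points) with SE (bars) for the 39 members, in WT (blue circles) and KI (orange squares), filled where the adjusted p is under 0.05, which none is. The KI squares lie left of 0 in 38 members and the WT circles scatter on both sides of it, from -0.42 to 0.40.

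Other genes of the interferon pathway, both upstream of the response and among its targets and inhibitors, were read from a list of 53 symbols. In that list 2 genes stand under both an older and a newer name, and 42 were tested. On control chow 35 of the 42 were higher in KI and 1 lower (median log2 fold change 0.83). On the ASK1i diet 28 were higher and 4 lower (median 0.51), or 30 and 5 (median 0.58) without replicate 5. The backgrounds over all genes are those given above. This list was chosen with earlier results of these data known, so its counts describe it and test no excess. Among the ligands, Ifng and Ifnk stayed below the filter: Ifng had at most 14 counts in a library, with 17 counts over the 10 WT control libraries and 39 over the 5 KI control libraries. The other 6 listed interferon genes had no row under those names in the count table, so they were not analysed here. All 6 receptor chains were higher in KI on both diets. Ifngr1, a chain of the interferon gamma receptor, differed by 1.52 (SE 0.17, adjusted p = 2.74e-08) on control chow. Ifnlr1, the specific chain of the interferon lambda receptor, differed by 2.84 (SE 0.53, adjusted p = 4.34e-05), and Ifnar1, a chain of the type I receptor, by 0.19 (SE 0.060, adjusted p = 0.00756).

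Behind the receptors, 3 of the 4 kinase and STAT genes were higher in KI on control chow and 0 lower. On the ASK1i diet 2 were higher and 1 lower, and with the inhibitor in WT livers 1 of the 4 was higher. The kinase gene Tyk2 gave 0.042 (SE 0.10, adjusted p = 0.739) on control chow and was lower on the ASK1i diet, at -0.31 (SE 0.083, adjusted p = 0.00163). Both listed inhibitors of the pathway were higher on both diets: Socs1 was higher by 3.78 (SE 0.57, adjusted p = 2.25e-06) and Socs3, which also answers to interleukin 6, by 2.53 (SE 0.35, adjusted p = 9.06e-07) on control chow. Of 13 tested sensors and factors that induce interferon 9 were higher and 1 lower on control chow, with Tmem173 (STING) at 2.26 (SE 0.24, adjusted p = 1.37e-08) and Mb21d1 (cGAS) at 2.00 (SE 0.28, adjusted p = 7.14e-07). Of 11 tested interferon gamma targets 9 were higher on control chow, against 4 with the inhibitor (5 without replicate 5), where 1 was lower. Cxcl9, a T cell attractant among them, gave 1.31 (SE 0.37, adjusted p = 0.00379) on control chow and 0.11 (SE 0.33, adjusted p = 0.786) on the ASK1i diet. The diet test in KI and the interaction each called 0 of these 11 targets, so a difference between diets was not shown for them. All 6 listed genes of nucleic acid restriction were higher on control chow, with Zbp1 at 2.16 (SE 0.30, adjusted p = 8.28e-07).

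Markers of immune cells moved with genotype, and their part in the members' differences was not tested. In bulk liver, more cells of a type and more RNA per cell cannot be told apart. The 11 neutrophil markers in the table were all higher in KI on both diets, and their summed level ran from 6.36 to 24.3 CPM in WT control and from 729 to 3869 CPM in KI control. In mice fed ASK1i that sum ran from 4.38 to 11.7 CPM in WT and, without replicate 5 (11.0 CPM), from 709.2 to 5056 CPM in KI. All 8 markers of monocyte-derived macrophages were higher in KI on both diets, with sums of 75.6 to 156 CPM in WT control and 898 to 1173 CPM in KI control. The sum was 106 CPM in KI ASK1i replicate 5 and from 504 to 1660 CPM in the other 9, beside 79.2 to 122 CPM in WT ASK1i. All 9 Kupffer cell markers were higher as well, with sums of 367 to 1130 CPM in WT control and 1877 to 2492 CPM in KI control, and with 647 CPM in replicate 5. Of 8 hepatocyte markers 6 were lower and 0 higher in KI on control chow. On the ASK1i diet 5 were lower and 1 higher, with or without replicate 5. The hepatocyte sums were 122391 to 145438 CPM in WT control and 38541 to 59805 CPM in KI control, while the highest KI ASK1i sum was that of replicate 5 (121810 CPM). No marker of these lists was at 0 in all libraries. Of 8 T and NK cell markers, cells that make interferon gamma, 5 were higher in KI on control chow and 4 with the inhibitor (5 without replicate 5). Their sums were 5.21 to 9.10 CPM in WT control and 10.3 to 21.5 CPM in KI control, without overlap, and 5.16 to 10.6 CPM in WT ASK1i and 4.64 to 22.7 CPM in KI ASK1i. Plasmacytoid dendritic cells, a main source of type I interferon, gave little signal: 5 of their 6 listed markers were tested, 0 were higher, and 1 was lower in KI on control chow, while 2 were with the inhibitor. Siglech, one of these markers, read a median of 0.423 CPM in WT control and 0.225 CPM in KI control.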

How the data were processed

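Poly(A) RNA-seq of mouse liver was measured in 33 libraries. The authors deposited expected counts per gene on build mm10, made per the submitters' processing notes with CASAVA 1.8.2, STAR 2.4 and RSEM 1.2.14. No source used here gives the annotation, any filter or the counting strand. Expected counts were rounded to whole numbers. They were fitted with edgeR 4.0.16 (R 4.3.3) by quasi-likelihood with TMM scaling after filterByExpr, which kept 14934 genes, on all libraries, with group, sex and title set (numbered or P titles) as terms. Benjamini-Hochberg adjustment covered all genes tested, with a threshold of 0.05. Log2 fold changes carry a prior count of 0.125 and log2 CPM values a prior count of 2. Intervals of 2 SE are approximate.

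Depth was 28099676 to 40008118 counts per library. No pair of libraries within a group agreed within sampling noise: a chi-square test of their counts gave at least 23.6 per gene in each of 128 pairs. The fit was run on simulated counts with known changes in KI control alone and the same spread for every gene. That setting is simpler than these data, and its outcome is not given here.

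The members, a fixed list of symbols, and the other lists were chosen with earlier results of these data known. Member shares set beside those of all genes therefore describe the list and test no excess. Per-library values are given for the members with the 3 smallest p-values in each role group and for every member that was lower. In other pathway classes up to 3 genes with the smallest p-values, or those whose diets differed in call, are named. Alternatives were DESeq2 1.42.0, limma 3.58.1 (voom), relative log expression scaling, other count filters, other terms, the numbered libraries alone, only the groups compared, leaving out each library, and, chosen after seeing the data, males alone. One gene of the pathway list is not reported here by name.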

Additional observations from a re-analysis of the deposited data

Results flagged for a closer look

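Each member was examined in each group for a library whose CPM stood apart from the rest of its group by Dixon's test at the 95% level. In 12 of 156 such groups (7.69%) a library stood apart, and chance sets apart about 5%.

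Among the KI control libraries, replicate 3 was highest in Irf1, at 107.806 CPM beside 71.3 CPM in the next library. Replicate 1 was lowest in Ifih1 (25.6452 CPM, next 33.7) and in Dtx3l (36.2293 CPM, next 47.8). Replicate 2 was highest in Dhx58, at 18.8388 CPM beside 13.9 CPM.

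In KI ASK1i, replicate 5 was lowest in Herc6 (5.6974 CPM, next 10.8) and in Xaf1 (2.8335 CPM, next 7.99). It is the library that lies among WT over all genes.

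WT ASK1i replicate 6 was lowest in Ifit3 (10.4052 CPM, next 15.6), in Ddx58 (28.4701 CPM, next 35.1) and in Xaf1 (4.1456 CPM, next 9.77). The same library was the lowest of its group in 22 of the 39 members.

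Among the WT control libraries, replicate 2P was highest in Ifih1 (46.1244 CPM, next 34.7). Replicate 8 was lowest in Samd9l (11.5681 CPM, next 15.7) and replicate 5 was lowest in Xaf1 (7.5377 CPM, next 10.5).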

How the results depend on the processing

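Of the counts of called members, those on control chow moved as follows. The 16 higher members became 10 with the L code as a term and ranged from 15 to 19 when 1 library was left out. The 19 were reached without KI ASK1i replicate 1 and without KI ASK1i replicate 5, libraries that enter the same fit. The 1 lower member (Trim25) became 2 with group as the only term and 0 with the L code or in males alone, and ranged from 0 to 1 when 1 library was left out. On the ASK1i diet the 7 lower members became 4 with the L code, 2 in the numbered libraries and 4 in males alone, and ranged from 5 to 7 when 1 library was left out. The 9 higher members ranged from 9 to 15, with 15 reached without KI ASK1i replicate 5, and were 6 in males alone. In WT the 0 members higher with the inhibitor became 1 (Ifih1) when the WT libraries alone were fitted. The other counts of called members moved by less than 1.5 times, and no called value changed sign under the alternatives run. The causes were not tested.

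No pairing by title number was seen: the deviations of same-numbered libraries correlated between -0.21 and 0.36. With only 5 to 8 pairs for each 2 groups compared, this does not exclude pairing. With a replicate block in place of title set, 15 members were higher and 0 lower on control chow, 8 higher and 6 lower on the ASK1i diet, and 0 in the other comparisons. The shares over all genes in that fit are not given here, so these counts are not set against a background.

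Some counts over all genes moved by more than 1.5 times. On control chow 4145 higher and 4321 lower became 2737 and 2366 with the L code. For the diet in WT, 169 and 40 became 264 and 102 by DESeq2, 491 and 210 in WT libraries alone, 111 and 22 with the replicate block, 18 and 5 with the L code, 16 and 3 in the numbered libraries and 0 and 0 in males. For the diet in KI, 0 and 8 became 19 and 18 by DESeq2, and the interaction gave 11 and 5 in place of 0 and 0.

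The sexes are uneven (1 female among the 5 KI control libraries), WT control and KI control share no L code, and 5 KI control libraries limit every comparison that uses them. Counts assigned among close paralogs carry an error that these files do not show.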
